A study of Mus musculus with 2 samples.

Results

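ATP-dependent chromatin remodellers use the energy of ATP to slide, evict or exchange nucleosomes, and so set how accessible promoters and enhancers are. Their motor subunits belong to the Snf2 family of ATPases and work inside large complexes of the SWI/SNF, ISWI, CHD and INO80 types, each with its own accessory subunits. In T cells, SWI/SNF complexes are known for opening chromatin after antigen receptor signalling, and NuRD complexes, which pair a CHD ATPase with histone deacetylases, for silencing genes during lineage choice. The remodelling genes were taken from the array by symbol: all genes whose symbol begins with Smarc, Ino80, Arid1 or Arid2, the Chd genes with a number, and Actl6a, Pbrm1, Hells, Atrx, Ruvbl1, Ruvbl2, Ep400, Mbd2, Mbd3, Mta1, Mta2 and Gatad2a. This gave 43 genes with 107 probe sets, of 18193 genes and 34945 probe sets annotated to 1 gene. One of the 43, Ino80dos, is a transcript next to Ino80d whose name begins with Ino80 and which is not a subunit of a complex.

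The study compared primary mouse T cells that had been stimulated with antibodies to CD3 and CD28 with cells that received the same stimulation and triptolide at 50 ng/ml, so both groups were activated and only the compound differed. Triptolide is a plant diterpenoid that binds the XPB ATPase of the transcription factor TFIIH. Purified T cells were kept in culture for 18 h, and the sources used here do not give mouse strain, age, number of animals or length of the exposure. Each group was measured on 1 array, so no value below has a replicate check, and no test between the groups was possible.

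The deposited values are MAS5 signals, a linear measure of hybridisation per probe set. Over all probe sets the stimulated array had a median signal of 95.5 and the triptolide array one of 87.6. A background floor of 118 was set from probe sets of chemosensory receptor genes, which T cells are not known to express, and 44.9% and 42.2% of all probe sets lay above it. A gene counts as detected when 1 or both of its signals exceed the floor, and each gene is described first by its brightest probe set. Ratios are triptolide over stimulated, on a log2 scale, with signals under the floor set to it, and the median over the 10968 detected genes was -0.16. Of 11 T cell markers on the array, all 11 lay above the floor on both arrays, with a summed signal of 62250 without and 45071 with triptolide. Of 6 B cell markers, 5 and 4 lay above it (summed signals 4754 and 3054), and of 6 myeloid markers 2 and 3 (622 and 958). Ighm made up most of the B cell sum (3482 and 1805), and Cd79a alone among the detected B cell markers was higher with triptolide (349 to 674). Of 3 natural killer cell markers 1 lay above it on each array (509 and 1012), with Ncr1 under the floor on both. That sum was nearly all Klrd1 (489 and 966). The part of these other cells in the values below was not tested, and in a bulk sample fewer cells of a type and less RNA per cell cannot be told apart. The SD between log2 ratios of probe sets of the same gene was 0.49 over 3733 genes and 0.50 over the 24 remodeller genes with at least 2 probe sets exceeding the floor on each array. It serves below as a guide to technical spread and does not cover variation between cultures.

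Most remodeller genes differed by less than 2-fold between the arrays. Of the 43 genes 41 were detected, and 34 of these were less than 2-fold apart on floored signals, although for Chd5, Ino80b and Ino80dos, with 1 signal under the floor, that ratio is only a lower bound. With triptolide 1 gene, Chd2, was at least 2-fold higher, where 5.63% of all detected genes were, and 6 genes were at least 2-fold lower (Ino80c, Chd9, Hells, Mbd3, Smarca2 and Smarcb1), where 12.5% of all detected genes were. The share of lower remodeller genes, 14.6%, was thus close to that of the array as a whole. Counted over probe sets, 5 of 94 detected ones were at least 2-fold higher and 12 at least 2-fold lower, against 5.69% and 12.8% of all detected probe sets with 1 gene. The median log2 ratio of the 41 genes was -0.31, against -0.16 over all detected genes. Of the 41, 32 (78.0%) lay below 0, against 60.2% of all detected genes. After centring the arrays on their median 25 of 41 lay below 0 (5630 of 11301 over all detected genes). Then 1 remodeller gene was at least 2-fold higher and 3 lower, against 890 and 1013 of the 11301. After quantile normalization 24 of 41 lay below 0 (5437 of 10975). Again 1 was higher and 3 were lower, against 892 and 932 of the 10975. Smarcb1 (-0.95 and -0.93), Smarca2 (-0.99 and -0.94) and Mbd3 were the genes that came to lie just within 2-fold under both scalings. Smarca1 (signals 30.4 and 14.4), an ISWI ATPase, and Smarcd3 (19.3 and 23.6), a SWI/SNF subunit best known from heart and muscle, were under the floor on both arrays.

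**Figure D1:**
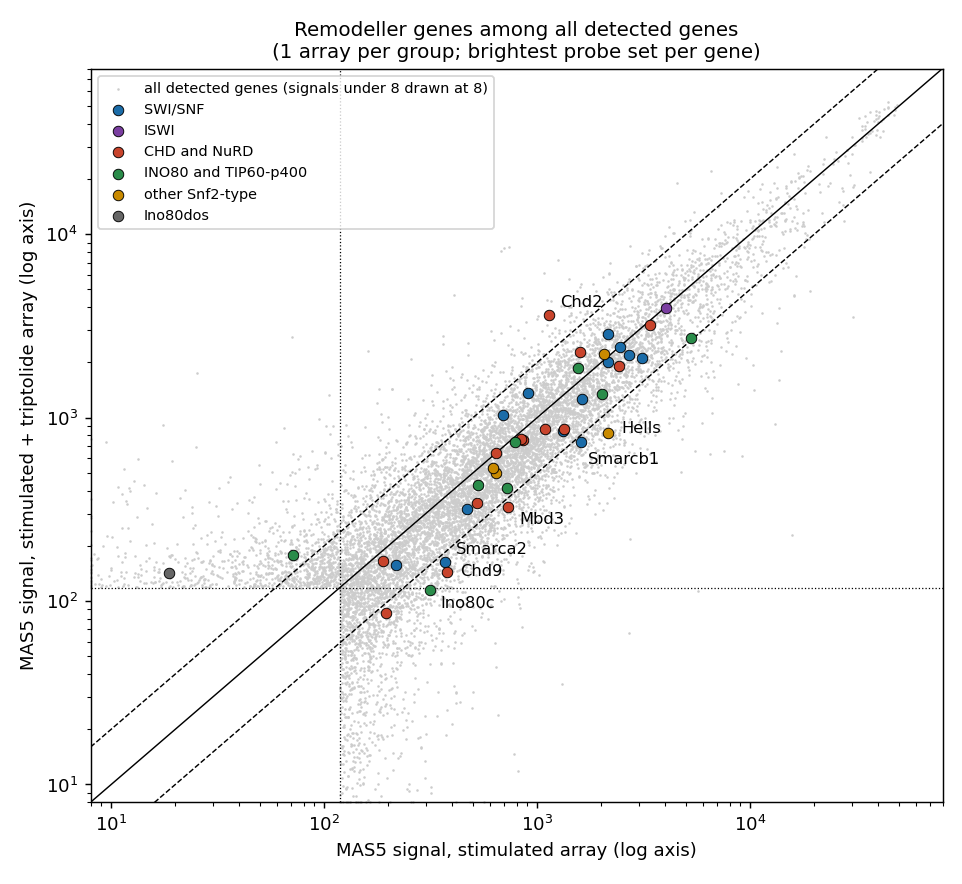
MAS5 signals of the stimulated array (x axis) against the triptolide array (y axis), both on log axes, with 1 point per detected gene (brightest probe set). Grey points are all 10968 detected genes, with signals under 8 drawn at 8, coloured points are the 41 detected remodeller genes, dashed lines mark 2-fold and dotted lines the floor of 118. The 7 genes at least 2-fold apart are named: Chd2 lies above the upper dashed line and the other 6 below the lower one. Unnamed points beyond the dashed lines (Ino80b, Ino80dos and Chd5) have 1 signal under the floor.

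Chd2 was the remodeller gene with the highest ratio. It encodes a chromodomain ATPase that is associated with actively transcribed genes. Its brightest probe set gave 1137 in stimulated cells and 3643 in triptolide-treated cells, 3.20-fold higher (log2 ratio 1.68). Its second probe set went from 121, just above the floor, to 495 (4.09-fold higher). Both probe sets were thus higher with triptolide. The log2 ratio of the gene stayed past 2-fold under all 9 alternative settings tried, the median over its probe sets among them, between 1.58 and 1.86.

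Hells encodes LSH, a Snf2-type ATPase needed for DNA methylation and abundant in dividing lymphocytes. Its brightest probe set gave 2157 in stimulated and 821 in triptolide-treated cells, 2.63-fold lower. The second probe set was lower by less (275 to 196, log2 ratio -0.49), and the last was near background (67.5 to 140.1), so the median over its probe sets was -0.49. Genes of proliferating cells were compared beside Hells. Of 15 detected ones 13 had ratios below 0 (60.2% of all detected genes did), with a median of -0.33 (-0.16 over all detected genes). Of the 13, Mcm7 (-0.08), Rrm2 (-0.09), Mcm3 (-0.10) and Mcm4 (-0.12) lay above that median of all genes. The count is for the values as deposited and was not repeated after centring the arrays. At least 2-fold lower was 1 of the 15, where 12.5% of all detected genes were. That one was Dnmt1, the maintenance DNA methyltransferase (2953 to 1258, 2.35-fold lower), while its recruiting factor Uhrf1 had a log2 ratio of -0.39. Pcna (19135 to 22194, log2 ratio 0.21) and Mcm2 (0.12) were higher with triptolide. The part of proliferation in the lower Hells signal was not tested.

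Smarcb1 and Smarca2 were the SWI/SNF genes at least 2-fold lower. Smarcb1 encodes a core subunit found in the canonical forms of the complex. Its brightest probe set went from 1606 to 732 (2.19-fold lower) and the second from 239.9 to 120.5 (1.99-fold lower), with a further one under the floor on both arrays. Both measured probe sets were therefore lower to about the same degree, though the triptolide signal of the second lay just above the floor. Both are of the types whose probes can be shared between transcripts, and without such probe sets Smarcb1 had no value. Smarca2 encodes BRM, one of the alternative motor subunits. Its brightest probe set went from 369.5 to 164 (2.25-fold lower), but its second went the other way, from 113 under the floor to 186. No direction can be given for Smarca2 from these probe sets.

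The remaining lower genes were dim or had a single usable probe set. Mbd3, a subunit that defines one form of NuRD, went from 733 to 324 on its single probe set (2.26-fold lower). Chd9 went from 378 to 144 on its brightest probe set (2.63-fold lower). Its other probe sets lay near or under the floor (133 to 80.0, and 87.4 to 62.6). Ino80c, a subunit of the INO80 complex, went from 314 to 114.3, under the floor (at least 2.65-fold lower on its single probe set). With the floor doubled, Chd9 and Ino80c had log2 ratios of -0.67 and -0.41.

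**Figure D2:**
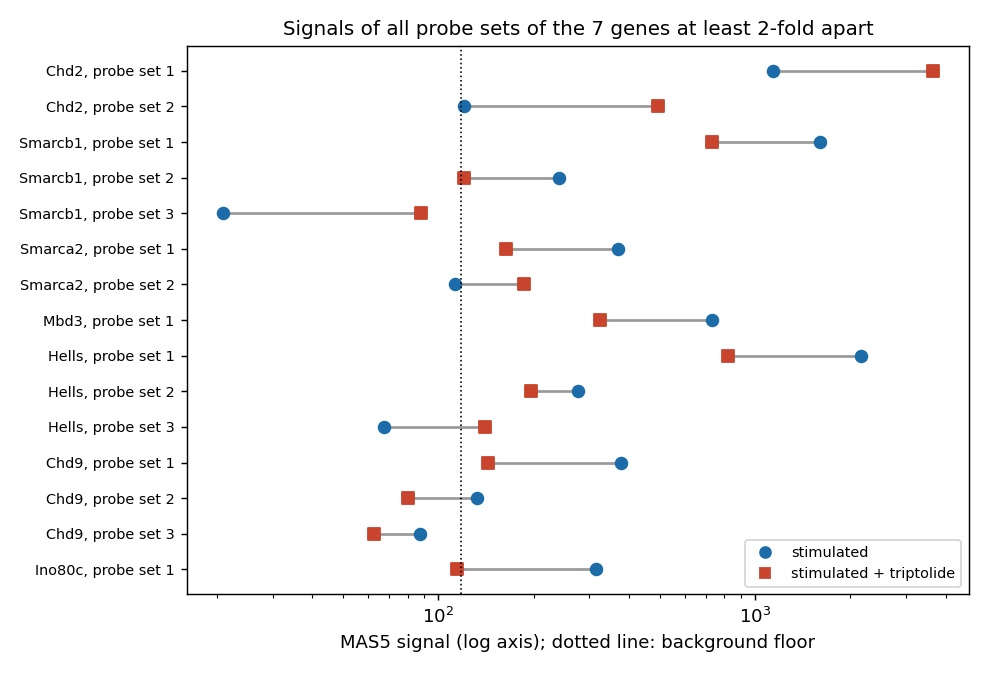
MAS5 signals (log x axis) of every probe set of the 7 remodeller genes at least 2-fold apart on their brightest probe set, with circles for the stimulated and squares for the triptolide array, 1 array each. Probe sets are numbered by brightness within a gene, and the dotted line is the floor of 118. Both Chd2 probe sets are higher with triptolide, the brighter pair of Smarcb1 is lower, and the 2 probe sets of Smarca2 go opposite ways.

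Promoter sequence was searched for all remodeller genes with a window, whatever their ratio, and is shown for 4 of the lower ones. The shares below are of windows and not of genes, and were not made for the lower genes alone. RefSeq windows (GRCm38.p6) were at hand for 34 of the 43 genes, 8 of them with 2 windows, and the 250 bases before each start were searched on both strands. The Sp1 motif GGGCGG was in 33 of 42 windows (78.6%), against 32.7% of all 32851 windows and 56.4% of those of genes detected on these arrays. The NF-Y motif CCAAT was in 12 (28.6%, against 33.8% of all windows and 34.9% of those of detected genes), and the TATA box letters TATAAA in 3 (7.14%, against 12.4% and 6.51%). The ETS motif CCGGAAG was in 5 (11.9%, against 6.91% and 13.8%) and the E box CACGTG in 2 (4.76%, against 6.02% and 8.52%). None of the 42 windows held the E2F letters TTTGGCGC or TTTCGCGC, or the NRF1 and YY1 motifs. Those E2F letters were in 0.417% and 0.256% of all windows, and in 0.814% and 0.548% of those of detected genes. Only these exact letters were searched, so E2F-type sites spelled otherwise would have been missed, in the Hells window as in the others. A match is a description of letters and not a binding site. The windows of 4 of the lower genes follow, 5′ to 3′ on the strand of the gene, with matches to any of these motifs on either strand in capitals. Each of the 4 has a single RefSeq start, and windows on 1 chromosome were not shown. Hells lies at chr19:38930740-38930989 on the plus strand, Mbd3 at chr10:80399532-80399781 on the minus strand, Smarca2 at chr19:26604910-26605159 on the plus strand and Smarcb1 at chr10:75921615-75921864 on the minus strand.
Hells: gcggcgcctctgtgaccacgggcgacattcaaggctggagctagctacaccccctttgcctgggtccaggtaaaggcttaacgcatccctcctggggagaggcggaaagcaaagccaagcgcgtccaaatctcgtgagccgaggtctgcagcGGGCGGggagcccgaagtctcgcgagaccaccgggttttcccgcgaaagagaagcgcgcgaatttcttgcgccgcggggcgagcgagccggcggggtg
Mbd3: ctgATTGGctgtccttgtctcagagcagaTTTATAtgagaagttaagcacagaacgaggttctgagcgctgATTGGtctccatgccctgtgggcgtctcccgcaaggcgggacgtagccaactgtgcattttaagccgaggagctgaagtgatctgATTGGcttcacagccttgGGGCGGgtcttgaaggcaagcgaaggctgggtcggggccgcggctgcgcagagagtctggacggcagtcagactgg
Smarca2: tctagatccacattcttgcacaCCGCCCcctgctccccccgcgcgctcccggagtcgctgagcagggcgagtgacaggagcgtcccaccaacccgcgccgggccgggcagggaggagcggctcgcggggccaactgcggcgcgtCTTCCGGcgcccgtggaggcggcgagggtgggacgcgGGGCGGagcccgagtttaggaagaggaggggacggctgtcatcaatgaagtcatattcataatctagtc
Smarcb1: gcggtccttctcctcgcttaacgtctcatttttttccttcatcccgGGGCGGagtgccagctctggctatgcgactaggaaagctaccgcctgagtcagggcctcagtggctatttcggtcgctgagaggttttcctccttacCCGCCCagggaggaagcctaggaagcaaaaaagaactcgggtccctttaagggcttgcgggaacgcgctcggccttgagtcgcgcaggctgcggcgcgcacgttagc
All 4 windows held GGGCGG in 1 orientation or the other, and Mbd3 alone among them held CCAAT, in 3 places.

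Within SWI/SNF, 13 of 14 genes were detected. None of them was at least 2-fold higher and 2 were lower, near the 12.5% of all detected genes. After median centring or quantile normalization the count of lower genes was 0, against 1013 of 11301 and 932 of 10975 detected genes. The median log2 ratio was -0.37 (-0.19 and -0.16 under those scalings). The motor gene Smarca4, which encodes BRG1, gave 2697 and 2182 on its brightest probe set (log2 ratio -0.31) and a ratio of -0.40 on the second. Both differed from 0 by less than the spread between probe sets. The genes of the large DNA-binding subunits that tell the complexes apart had log2 ratios from -0.02 to 0.58: Arid1a -0.02 (2460 to 2427), Arid1b 0.58 (694 to 1036) and Arid2 0.40 (2149 to 2843), though 2 of 4 Arid2 probe sets went the other way. The second Arid1a probe set was higher as well (0.41). Pbrm1, which with Arid2 marks the PBAF form, had a log2 ratio of -0.37, with its 3 probe sets between -0.79 and -0.32. Of the scaffold pair, Smarcc1 had a log2 ratio of 0.59 (902 to 1355) and Smarcc2 one of -0.57 (470.5 to 317). For the actin-related Actl6a, the brightest probe set went from 1324 to 841 (log2 ratio -0.65) and the dimmest from 462 to 148 (-1.64). Smarcd1 and Smarcd2, alternative subunits of one position, had ratios of -0.47 and -0.09.

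The single detected ISWI motor gene, Smarca5, encodes SNF2H, which spaces nucleosomes. It had signals of 4020 without and 3953 with triptolide, a log2 ratio of -0.02. Its next 2 probe sets had ratios of -0.23 and -0.22, so none of the 3 moved by as much as the spread between probe sets.

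**Figure D3:**
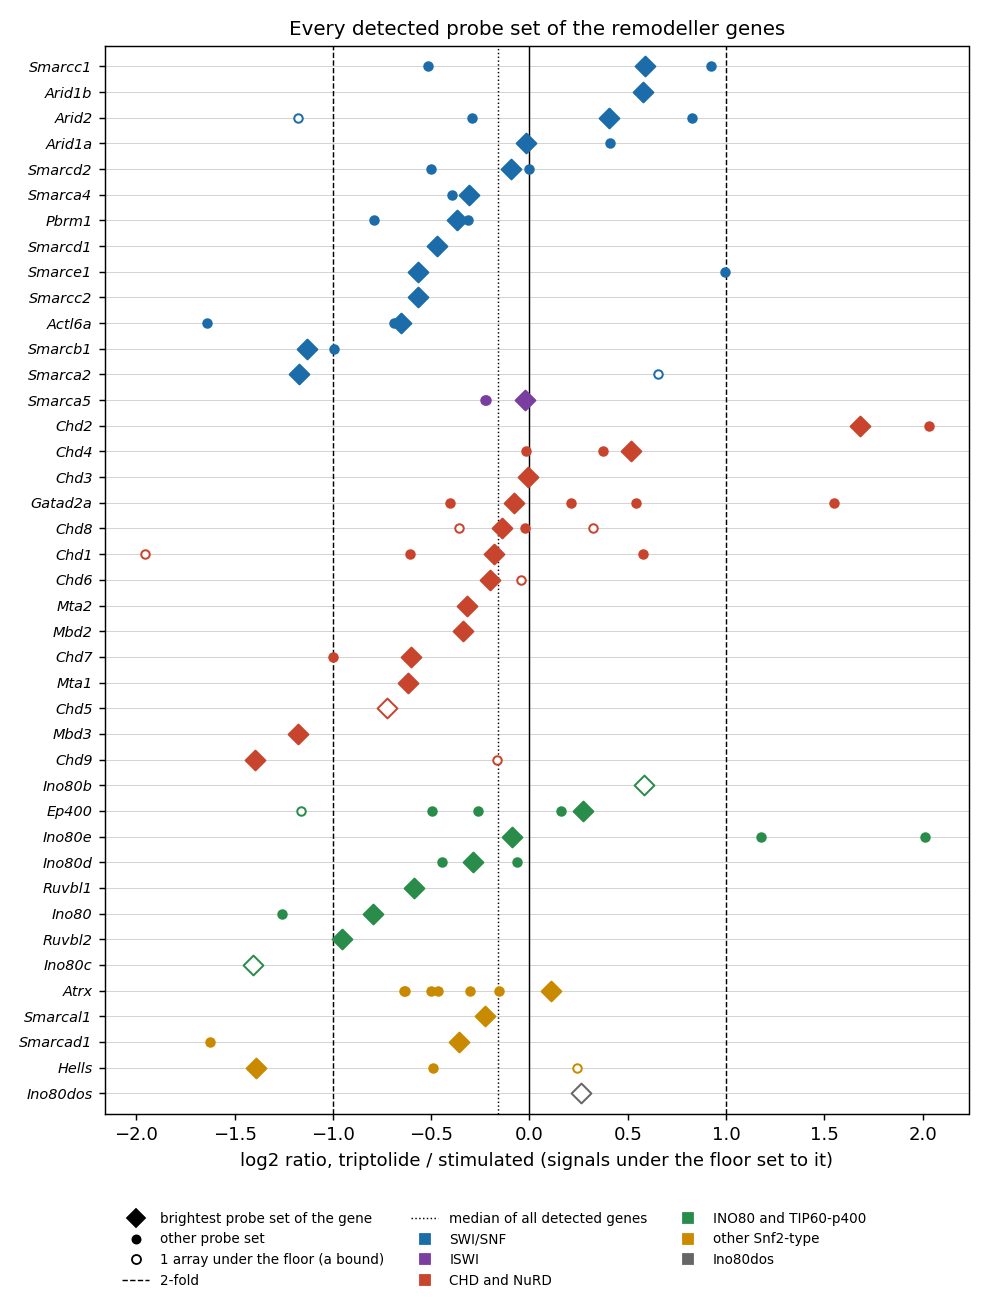
Log2 ratios (x axis, triptolide over stimulated, signals under the floor set to it) of all detected probe sets of the 41 detected remodeller genes, 1 row per gene, grouped and coloured by family. Diamonds are the brightest probe set of a gene, open symbols have 1 array under the floor, dashed lines mark 2-fold and the dotted line the median of all detected genes at -0.16. Most diamonds lie between the dashed lines, Chd2 has the one diamond beyond 2-fold on the right, and Ino80e, Smarce1 and Gatad2a show probe sets far apart.

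All 9 CHD genes were detected, Chd2 past 2-fold upwards and Chd9 downwards, and their median was -0.18 as deposited, close to 0 after median centring and of 0.03 after quantile normalization. Chd4, the main NuRD motor, went from 1595 to 2279 (log2 ratio 0.52), and its other probe sets had ratios of 0.37 and -0.02. Chd3, the alternative NuRD motor, had the same signal on both arrays (642 and 639). Chd1, which binds methylated histone H3 at active genes, went from 857 to 757 by its brightest probe set (log2 ratio -0.18). Another Chd1 probe set went from 460 to 74.1, under the floor (at least 3.88-fold lower). A dim one was lower as well (199 to 131, log2 ratio -0.61). The only higher one was also dim (190 to 283, log2 ratio 0.58), so the 4 probe sets did not all go the same way. Chd7 was lower on both probe sets (523 to 344, and 376 to 188), Chd8 of -0.14 on the brightest, and Chd6 of -0.20 near the floor (189 to 164). Chd5, a gene known from neurons, was dim (195 to 86.6, at least 1.65-fold lower).

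Mbd2, Mta1, Mta2 and Gatad2a lay within 2-fold on their brightest probe sets. Mbd2, the methyl-CpG binding alternative to Mbd3, went from 2413 to 1912 (log2 ratio -0.34), with -0.35 on its second probe set. Mta1 and Mta2, which scaffold the deacetylase module, had ratios of -0.62 (1335 to 871) and -0.32 (1084 to 869). The linker gene Gatad2a went from 3382 to 3199 by its brightest probe set (log2 ratio -0.08). Its 5 probe sets spread from -0.40 to 1.55, the highest being a dim one (138 to 405).

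The INO80-type genes included 5 INO80 subunits, the AAA+ ATPases Ruvbl1 and Ruvbl2, which INO80, SRCAP and TIP60 complexes share, and the motor Ep400. The motor gene Ino80 was lower on both probe sets, 1.74-fold on the brightest (723 to 416) and 2.39-fold on the second (309.5 to 129). Ruvbl2 was 1.94-fold lower (5258 to 2715) and Ruvbl1 had a log2 ratio of -0.59 (2019 to 1344), each on a single probe set. Ep400 had nearly equal and opposite ratios on its brightest pair, 0.27 (1552 to 1871) and -0.26 (1867 to 1556). Its other detected probe sets had ratios of -0.50, of 0.16 and of at least 2.24-fold lower (265 to 111).

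Ino80d, another INO80 subunit gene, had ratios of -0.29, -0.44 and -0.06 on its 3 probe sets. Among probe sets measured on each array, those of Ino80e spanned the most, 2.10 log2 units. Its brightest probe set was level (789 to 741, log2 ratio -0.09), and the others were 4.03-fold (191 to 769) and 2.26-fold higher (224 to 507). Ino80b exceeded the floor only on the triptolide array (71.2 to 177.5, a log2 ratio of at least 0.58), as did Ino80dos (18.6 to 142, at least 1.20-fold higher).

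Among the other Snf2-type genes, Atrx, which deposits a histone variant at repeats together with Daxx, went from 2052 to 2214 by its brightest probe set (log2 ratio 0.11). Its 6 other probe sets all lay below 0, between -0.64 and -0.16. Smarcad1, which acts at replicated chromatin, had ratios of -0.36 (638 to 498) and -1.62 (536.5 to 174) on its 2 probe sets. Smarcal1, which anneals DNA at stalled replication forks, had a ratio of -0.23 (618 to 528).

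Agreement between probe sets was limited, for this group to about the same degree as over all genes. Of the 24 genes with at least 2 measured probe sets (signals exceeding the floor on each array), the brightest pair went the same way in 17, and over all 3733 such genes 72.0% did. All measured probe sets lay below 0 in 13 of the 24 and above 0 in 1 (Chd2), and 10 had probe sets on both sides. These counts and the one that follows were not made over all genes. In 7 genes they spanned at least 1 log2 unit or went opposite ways by at least 0.5: Arid2, Chd1, Gatad2a, Ino80e, Smarcad1, Smarcc1 and Smarce1. For Smarce1, a DNA-binding SWI/SNF subunit, the brightest probe set went from 3117 to 2102 and the second from 458 to 913. The sources used here do not give which transcripts these probe sets detect.

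Alternative subunits that occupy the same place in a complex, or close relatives, were compared with each other, since a difference between 2 genes on the same arrays does not depend on a common scaling factor. The 9 pairs were chosen with their values known. Their differences are set against 0.69, the SD of the difference between 2 probe sets of the same gene. Chd2 minus Chd1 was 1.86 log2 units and Smarcc1 minus Smarcc2 was 1.16. Smarca4 minus Smarca2 was 0.87 and Mbd2 minus Mbd3 0.84, and the first of these rests on the Smarca2 probe set that its second contradicts. The Smarcc1 gap rests on the probe set too, since another Smarcc1 probe set (497 to 348, log2 ratio -0.51) lay close to the -0.57 of Smarcc2. The other 5 pairs differed by less than 0.69: Arid1a and Arid1b, Smarcd2 and Smarcd1, Chd4 and Chd3, Mta2 and Mta1, and Ruvbl1 and Ruvbl2.

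Other genes of the same complexes, which the symbol rule does not take, gave a view of the surroundings. Of 69 such partner genes 62 were detected, 2 were at least 2-fold higher (5.63% of all detected genes were) and 14 lower by as much (12.5% of all detected genes). The median log2 ratio was -0.46, against -0.16 over all detected genes. It was -0.28 after median centring and -0.26 after quantile normalization, against 0.003 and 0.006. Under each of those scalings 12 of the 62 were at least 2-fold lower, against 1013 of 11301 and 932 of 10975 detected genes. At least 2-fold higher were then 2 and 3, against 890 and 892. Partners of the TIP60 and SRCAP complexes, which acetylate histones and exchange a histone variant, held 7 of the 14 as deposited, out of 15 detected. Under each of those scalings 6 of the 15 were at least 2-fold lower. Kat5, the acetyltransferase TIP60 itself, had the lowest ratio (1292 to 236, 5.47-fold lower) and was lower on both probe sets. Brd8 (3.20-fold), Yeats4 (2.91-fold), Dmap1 (2.82-fold), Vps72 (2.60-fold), Ing3 (2.34-fold) and Meaf6 (2.24-fold) were lower too. Of these, Ing3 had a log2 ratio of -0.43 when probe sets shared between transcripts were left out, and Yeats4 and Dmap1 had no value. In that setting 10 of 59 detected partner genes were at least 2-fold lower. The ratios of the lower TIP60 and SRCAP partners stood beside log2 ratios between -0.95 and 0.27 for the remodeller genes of those complexes, Ep400, Ruvbl1 and Ruvbl2. Among 7 INO80 partners 2 were at least 2-fold lower, Mcrs1 (1044 to 219.5, 4.76-fold) and Nfrkb (2.31-fold), and none was higher.

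In SWI/SNF 2 of 12 detected partners were at least 2-fold lower, near the 12.5% of all detected genes, Bcl11b (2.92-fold), a T cell transcription factor that also joins the complex, and Bcl7b (2.14-fold). The NuRD partners held the deacetylase genes, of which Hdac1 was 2.00-fold higher (3582 to 7163) and Hdac2 had a log2 ratio of -0.86. Mta3, a relative of Mta1 and Mta2, was 3.18-fold lower by its brightest probe set, while the other gave a log2 ratio of -0.32. The ISWI partner Pole3, a histone-fold subunit, was 2.05-fold higher, with the same ratio on its second measured probe set. Of related ATPases outside the rule, Chd1l was 3.78-fold lower (2330 to 617) and Hltf 2.34-fold lower. Cdca7, which recruits the Hells protein to chromatin, had a log2 ratio of -0.73, beside -1.39 for Hells itself.

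**Figure D4:**
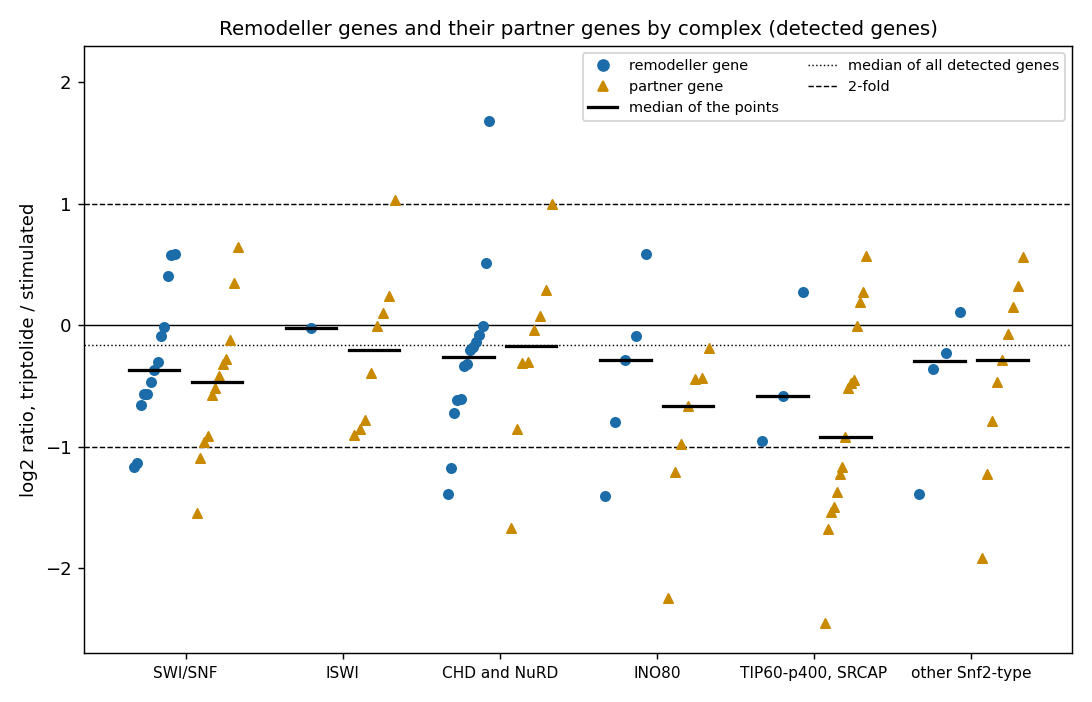
Log2 ratios (y axis, triptolide over stimulated, brightest probe set, signals under the floor set to it) of detected remodeller genes (circles) and partner genes (triangles) by complex, with a bar at the median of each set, dashed lines at 2-fold and a dotted line at the median of all detected genes. Ruvbl1 and Ruvbl2 are drawn with TIP60-p400 and SRCAP, points are spread sideways by value for legibility, and the TIP60 and SRCAP partners have the lowest median, -0.92.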

How the data were processed

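Total RNA of 2 samples of mouse primary T cells, 1 per group by source name, was hybridised to Affymetrix 3′ arrays. The authors deposited 1 linear signal intensity per probe set and array, made with MAS5 per the submitters' processing notes; the sources used here do not give its version or scaling settings. The trimmed mean (2% at each end) came to 2000 on each array for the 100 probe sets at the top of the table, and to 383 and 340 for all 45037, so levels rest on those 100 probe sets, none of which belongs to a remodeller gene. Signals were used without further normalization. The floor was the 95th percentile of 87 chemosensory receptor probe sets (107 and 118), the higher value for both arrays. Of the probe sets, 34945 had 1 gene symbol, 932 several and 9160 none, and 34741 were matched to the RefSeq gene table (GRCm38.p6) for symbols. The brightest probe set of a gene, by mean log2 signal after flooring, stood for the gene.

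With 1 array per group no test was made, and genes were counted at 2-fold (a log2 ratio of at least 1 or at most -1). The number of arrays limits the precision. All detected members may be named, with both signals for those at least 2-fold apart, those with disagreeing probe sets, the 5 brightest and the ATPase genes; partner genes are named at 2-fold, and others were picked after their values were seen. The members, lists and alternatives were chosen with earlier results of these data known. Calculations used Python 3.11.15, numpy 2.4.6 and pandas 2.3.3, and were tested on simulated data.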

Additional observations from a re-analysis of the deposited data

How the results depend on the processing

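The arrays' scaling, the floor and the choice of probe set could each move the counts, and 9 alternatives were tried. The number of remodeller genes at least 2-fold higher was 3 with no floor and 2 with the median over a gene's probe sets. The number at least 2-fold lower was 3 after median centring, after quantile normalization, with the doubled floor and when genes dimmer than 4 times the floor (mean signal) were left out, and 2 with the floor value as pseudocount. The median log2 ratio was -0.13 after median centring, -0.13 after quantile normalization and -0.23 without those dimmer genes. Partner genes at least 2-fold higher numbered 1 with no floor and 0 with the pseudocount, and their median was -0.28 after median centring, -0.26 after quantile normalization and -0.39 with the pseudocount. Remodeller probe sets at least 2-fold higher numbered 8 after median centring, 8 after quantile normalization, 9 with no floor and 1 with the brighter signals, and those at least 2-fold lower 4 with the doubled floor, 5 with the pseudocount and 3 with the brighter signals. Over all detected genes 1013 of 11301 were at least 2-fold lower after median centring and 932 of 10975 after quantile normalization. Such counts over all genes were not made for the other alternatives, nor over all probe sets. Both scalings even out the arrays, whose median ratio is below 0 as deposited, and the brightness limit leaves fewer genes. With the doubled floor Chd9 (-0.67), Ino80c (-0.41) and Smarca2 (-0.64) stayed detected, with log2 ratios within 2-fold. For the other settings the cause was not tested.

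Smarca2 turned to 0.65 without probe sets shared between transcripts. Chd2 stayed past 2-fold in 9 of 9 alternatives, Hells in 8 of 9, Mbd3 in 6 of 9, Smarcb1 and Ino80c in 6 of 8, Chd9 in 5 of 8 and Smarca2 in 2 of 8. Of 491 values of single genes, 20 moved by more than the SD between probe sets without changing the sign of a 2-fold difference, and so did the Smarca2 value that changed sign. No paired analysis was possible because each group has 1 array, and leaving out a replicate was not possible for the same reason. Signals near the floor give bounds at best.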

Other observations

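Ino80 is also named among the 6 genes annotated to 1 probe set together with the ribosomal protein gene Rpl35a. It gave 33549.5 in stimulated and 36379 in triptolide-treated cells (log2 ratio 0.12), and it entered no comparison.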
